A study of Mus musculus with 4 samples.

Results

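The sarcomere genes examined here were 44 of the 27998 genes in the count tables, chosen from a list of thick-filament, thin-filament and Z-disc components and their chaperones that runs from embryonic to adult isoforms. All 44 were present in the tables, and they comprised 5 developmental genes, 7 slow-fiber genes, 17 adult fiber genes and 15 genes shared by the stages. Satellite cells, the stem cells of skeletal muscle, were sorted as ITGA7+/VCAM+/Lin- cells from the hindlimb muscles of 2 pooled mice per strain and profiled by 10X single-cell RNA-seq, giving 1 library for each of 4 strains. The question was which sarcomere transcripts were made inside cells that carried *Myog*, and which were found at like levels in other cells.

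The B10 library came from C57/Bl10ScsSn mice aged 15 weeks and the DBA library from DBA/2 mice aged 13 weeks, which are the wildtype controls. The *mdx* library came from C57BL/10ScSn-Dmdmdx mice aged 11 weeks and the D2-*mdx* library from D2.B10-Dmdmdx mice aged 14 weeks, and both carry the *mdx* allele of the dystrophin gene in every cell. With 1 library per strain, genotype, age and preparation cannot be told apart, no test was run, and the intervals given are exact 95% Poisson intervals for levels and exact Clopper-Pearson intervals for shares that cover counting error only. Levels are unique molecular identifiers (UMIs) of a gene per 1000000 UMIs of a cell set (CPM), from a 3′ assay that was not scaled by gene length. Where a set had 0 counts, the value it is said to allow is 3 counts over the UMIs or cells of the set. This limit is lower than the upper end of the exact 95% interval.

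The libraries held 3539 to 9931 barcodes and 43542853 to 75482888 UMIs, and 3279 to 6313 cells per library were kept, with median depths of 6675 to 10434 UMIs. Of these, 4418 B10, 4806 *mdx*, 2698 DBA and 4145 D2-*mdx* cells fell in myogenic clusters, and 3 to 8 kept barcodes were shared by any pair of libraries. In the B10 library, 4739 barcodes (47.7%) had fewer than 1000 genes, against 11 to 21 barcodes in the others. *Dmd* itself was at 325 CPM in B10 and 291 CPM in DBA myogenic cells without *Myog*, and at 129 CPM in *mdx* and 105 CPM in D2-*mdx*. *Pax7*, the defining gene of satellite cells, was at 912, 458, 704 and 476 CPM in the same cells of B10, *mdx*, DBA and D2-*mdx*. It was among the markers by which clusters were classed as myogenic, so these levels are no separate check of the sorted cell type.

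The sarcomere is the contractile unit of muscle, in which myosin thick filaments slide along actin thin filaments that are anchored in the Z-disc and gated by the troponin complex. Muscle precursors that express *Myog* leave the cell cycle, fuse and begin to make sarcomere proteins, first with embryonic, neonatal and cardiac isoforms such as those of *Myh3*, *Myh8*, *Actc1* and *Tnnt2*. In mature fast fibers these are replaced by adult isoforms such as those of *Myh4*, *Acta1* and *Tnnt3*, whose transcripts are so abundant that RNA from broken fibers is a common contaminant of cell suspensions.

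The upstream sequences of 6 members are shown because their transcripts mark the contrasts that follow: *Actc1*, *Tnnt2*, *Myh3* and *Klhl41* were concentrated in cells with *Myog*, *Acta1* is the adult partner of *Actc1*, and *Ckm* is the adult fiber gene that others are set against further on. Sequences are from RefSeq (GRCm38.p6), read 5′ to 3′ on the gene's strand and ending at the annotated start or before the nearest GENCODE exon. Capitals mark the sequence CAGCTG (an E-box core bound by the MyoD family), the CArG box (bound by SRF) and the MEF2 motif, searched on both strands.
Actc1 (chr2:114052888-114053125, - strand): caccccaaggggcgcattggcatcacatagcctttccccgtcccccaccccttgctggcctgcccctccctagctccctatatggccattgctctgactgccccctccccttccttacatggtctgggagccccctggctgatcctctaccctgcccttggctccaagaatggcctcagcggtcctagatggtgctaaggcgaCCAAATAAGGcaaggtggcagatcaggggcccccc
Tnnt2 (chr1:135836084-135836333, + strand): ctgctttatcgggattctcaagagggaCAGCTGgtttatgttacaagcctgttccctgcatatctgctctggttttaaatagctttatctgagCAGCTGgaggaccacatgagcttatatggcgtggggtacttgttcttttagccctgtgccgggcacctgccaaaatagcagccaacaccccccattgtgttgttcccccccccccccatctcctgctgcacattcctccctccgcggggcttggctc
Myh3 (chr11:67078050-67078299, + strand): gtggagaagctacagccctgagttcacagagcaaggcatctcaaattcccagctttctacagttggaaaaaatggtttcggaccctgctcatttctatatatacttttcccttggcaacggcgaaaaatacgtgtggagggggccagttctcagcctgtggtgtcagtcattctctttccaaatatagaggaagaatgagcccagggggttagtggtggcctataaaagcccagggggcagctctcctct
Klhl41 (chr2:69669870-69670119, + strand): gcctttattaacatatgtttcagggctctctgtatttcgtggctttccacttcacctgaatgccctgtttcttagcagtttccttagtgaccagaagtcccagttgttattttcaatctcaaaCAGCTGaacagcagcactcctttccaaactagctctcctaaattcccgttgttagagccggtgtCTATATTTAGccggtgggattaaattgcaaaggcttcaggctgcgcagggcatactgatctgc
Acta1 (chr8:123894776-123895025, - strand): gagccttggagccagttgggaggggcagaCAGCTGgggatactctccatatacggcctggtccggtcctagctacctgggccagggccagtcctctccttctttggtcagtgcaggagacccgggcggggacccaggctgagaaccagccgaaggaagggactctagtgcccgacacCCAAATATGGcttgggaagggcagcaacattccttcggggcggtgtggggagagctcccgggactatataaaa
Ckm (chr7:19410844-19411024, + strand): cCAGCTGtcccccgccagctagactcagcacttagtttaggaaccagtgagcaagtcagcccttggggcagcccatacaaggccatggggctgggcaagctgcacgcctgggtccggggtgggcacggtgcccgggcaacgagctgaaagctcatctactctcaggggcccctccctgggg

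The set of RefSeq upstream sequences used here covered 36 of the 44 members, and *Actn3*, *Tnni2*, *Tnnt3*, *Myoz1*, *Myom2*, *Tcap*, *Neb* and *Lmod3* were not matched in it. Within 250 bases of the start, CAGCTG was found in 12 of the 36 members (33.3%) and in 13.0% of 32851 upstream sequences of all genes, and any CANNTG, which includes CAGCTG, in 28 members (77.8%) and in 66.2% of all. The CArG box was found in 6 members (16.7%), among them *Actc1*, *Acta1* and *Ldb3*, and in 1.47% of all sequences. The MEF2 motif was found in 7 members (19.4%), among them *Klhl41*, *Ttn* and *Myh8*, and in 2.92% of all. Both actin genes thus carried a CArG box, and the windows of *Tnnt2* and *Klhl41* held CAGCTG while those of *Myh3* and *Actc1* did not.

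*Myog* encodes myogenin, the transcription factor of terminal myogenic differentiation, and cells with at least 1 *Myog* UMI were more frequent in the DMD libraries. They made up 393 of 4806 *mdx* myogenic cells (8.18%, interval 7.42 to 8.99) and 524 of 4145 D2-*mdx* cells (12.6%, 11.6 to 13.7). In the controls they were 30 of 4418 B10 cells (0.679%, 0.459 to 0.968) and 41 of 2698 DBA cells (1.52%, 1.09 to 2.06). Cells of endothelial-like, glial-like and white blood-like clusters, which should lack *Myog*, also carried it, at 45 of 810 in *mdx* (5.56%) and 53 of 561 in D2-*mdx* (9.45%), against 1 of 75 in DBA (1.33%) and 0 of 53 in B10, which allows a share of up to 5.66%. The median depths of these non-muscle cells were 7013, 6765.5, 11583 and 7529 UMIs, and those of the myogenic cells 8416, 6850, 10289 and 6476 UMIs. The interval of the non-muscle share was 4.08 to 7.36% in *mdx*, below that of the myogenic cells, and 7.16 to 12.2% in D2-*mdx*, where the 2 overlapped. The shares at 1 UMI are therefore read against this background, and the source of *Myog* UMIs in non-muscle cells was not tested.

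A requirement of at least 2 *Myog* UMIs lowered the share of non-muscle cells more than that of myogenic cells in the DMD libraries. At that limit the positive cells numbered 219 in *mdx* (4.56%, 3.98 to 5.19), 242 in D2-*mdx* (5.84%, 5.14 to 6.596), 10 in B10 (0.226%, 0.109 to 0.416) and 24 in DBA (0.890%, 0.571 to 1.32), against 7 of 810 (0.864%) and 9 of 561 (1.60%) non-muscle cells in *mdx* and D2-*mdx* (intervals 0.348 to 1.77% and 0.736 to 3.02%). The non-muscle cells of B10 and DBA had none, but their number allows shares of up to 5.66% and 4.0%, above the myogenic shares there. The summed level of the 5 developmental genes in cells with 0, 1, 2 to 3 and at least 4 *Myog* UMIs was 17.8, 29.1, 106 and 2213 CPM in *mdx*. In D2-*mdx* the same sums were 13.7, 13.3, 830 and 895 CPM, and without 1 cell rich in fiber transcripts, of a kind described below, the sum at 2 to 3 UMIs was 44.0 CPM. The 17 adult fiber genes summed to 180, 197, 191 and 366 CPM in B10, *mdx*, DBA and D2-*mdx* cells without *Myog*, to 149, 186, 130 and 2846 CPM in cells with 2 to 3 UMIs and to 161, 861, 185 and 1337 CPM in cells with at least 4 UMIs. The D2-*mdx* value at 2 to 3 UMIs was 579 CPM without that cell. Cells with 1 *Myog* UMI thus had developmental sums of at most 29.1 CPM, and the cells with at least 2 are called *Myog*-expressing below, a limit preferred over 1 UMI after these values were seen. *Myod1*, an earlier factor of the same family, was at 625, 610, 834 and 680 CPM in *Myog*-expressing cells and at 103, 107, 140 and 148 CPM without *Myog*, so the cells with *Myog* carried a second myogenic marker in every library. Their median depth was 13989 UMIs in *mdx* and 13317 in D2-*mdx*, against 6628 and 6254 in cells without *Myog*, and the part of depth in these results was not tested.

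**Figure D1:**
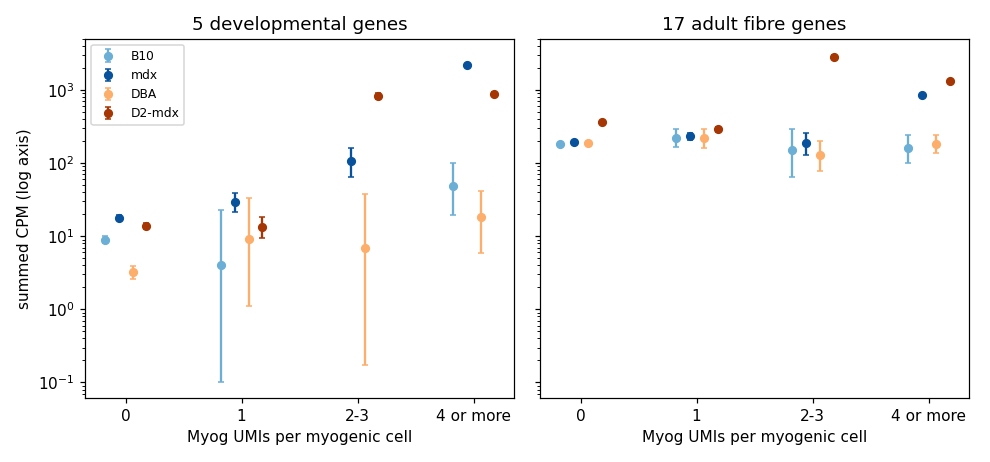
Summed CPM (log axis) of the 5 developmental and the 17 adult fiber genes in myogenic cells with 0, 1, 2-3 or at least 4 Myog UMIs, by library. Points are sums over cells, bars are exact 95% Poisson intervals, and a set with no UMI has no point. The developmental sum reached 2213 CPM in mdx and 895 CPM in D2-mdx at 4 or more Myog UMIs. The adult fiber sum was between 180 and 366 CPM in the 4 libraries without Myog, and Actn3 made up most of it in B10 and DBA. It was highest, at 2846 CPM, in D2-mdx at 2-3 UMIs, mostly from 1 cell rich in fiber transcripts.

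Among the developmental genes, *Actc1* and *Tnnt2* were the most abundant in *Myog*-expressing cells of both DMD libraries and were nearly missing from those of the controls. *Actc1*, which encodes the cardiac actin used by embryonic skeletal muscle (chromosome 2, 114047282 to 114053548, GRCm38), was at 1459 CPM in *mdx* (4757 UMIs) and 492 CPM in D2-*mdx* (1777 UMIs). It was at 0 UMIs in the 10 B10 cells, which allows up to 15.2 CPM, and at 1 UMI (2.37 CPM) in the 24 DBA cells. In cells without *Myog* it was at 0.659, 3.99, 0.305 and 2.97 CPM in B10, *mdx*, DBA and D2-*mdx*, so the DMD libraries carried it almost wholly in *Myog*-expressing cells. These cells held 8.10% of the myogenic UMIs in *mdx* and 10.4% in D2-*mdx*, but 97.02% and 95.1% of the *Actc1* UMIs.

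*Tnnt2*, the troponin T of heart and embryonic muscle, was at 497 CPM in *mdx* and 317 CPM in D2-*mdx* among *Myog*-expressing cells, at 10.2 CPM (2 UMIs) in B10 and at 0 UMIs in DBA, which allows up to 7.11 CPM. *Myh3*, the embryonic myosin heavy chain (chromosome 11, 67078300 to 67102291), was at 5.08 CPM (1 UMI), 26.1, 4.74 (2 UMIs) and 40.1 CPM in B10, *mdx*, DBA and D2-*mdx*. *Myl4*, the embryonic and atrial essential light chain, was at 10.2, 98.1, 2.37 and 36.5 CPM in the same order. The 3 genes were higher in both DMD libraries than in the controls, but the control values rest on 0 to 2 UMIs. *Myh8*, the neonatal myosin heavy chain, did not share this order and was at 10.2 CPM (2 UMIs), 4.599, 4.74 and 0.554 CPM.

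Part of the *Myog*-expressing cells held most of the developmental transcripts. At least 5 *Actc1* UMIs were present in 80 of 219 *mdx* cells (36.5%, 30.1 to 43.3), 44 of 242 D2-*mdx* cells (18.2%, 13.5 to 23.6), 0 of 10 B10 cells and 0 of 24 DBA cells. In *mdx* the cells with at least 5 *Actc1* UMIs had a median of 106 *Myog* UMIs and a median depth of 18294 UMIs, against 18 and 11983 in the rest. In D2-*mdx* the medians were 98 *Myog* UMIs and 17647 UMIs, against 13 and 12445. Spread in proportion to depth, the 4903 *Actc1* UMIs of *mdx* myogenic cells would reach 2832 cells, and they were found in 244. *Myh3* was sparser, with a UMI in 38 *mdx* and 37 D2-*mdx* cells, and the 10 highest cells held 65.9% and 78.6% of its UMIs.

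The control cells were also compared within common ranges of *Myog* UMIs, because *Myog* itself was at 1788 and 1220 CPM in B10 and DBA and at 3884 and 2443 CPM in *mdx* and D2-*mdx* among *Myog*-expressing cells. Cells with 50 or more *Myog* UMIs numbered 4 in each control library, 86 in *mdx* and 57 in D2-*mdx*. In the DMD libraries *Actc1* was at 2797 CPM (*mdx*) and 1369 CPM (D2-*mdx*) in them, in B10 at 0 of 77776 UMIs, which allows up to 38.6 CPM, and in DBA at 11.4 CPM (1 UMI). *Tnnt2* in the same cells was at 25.7 CPM (2 UMIs), 886, 0 and 813 CPM. The control cells with 50 or more *Myog* UMIs thus had far less of both genes than the DMD cells past the same limit. There were only 4 of them per library, and *Myog* levels above the limit were not compared. At 10 to 49 *Myog* UMIs, *Actc1* was at 201 CPM in 93 *mdx* cells and 48.1 CPM in 110 D2-*mdx* cells, and at 0 in 10 DBA cells, which allows up to 19.3 CPM. In D2-*mdx* the 75 cells with 2 to 9 *Myog* UMIs were at 213 CPM, but of those with 2 to 3 *Myog* UMIs 1 cell rich in fiber transcripts held all 197 *Actc1* UMIs and the other 36 cells had 0.

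**Figure D2:**
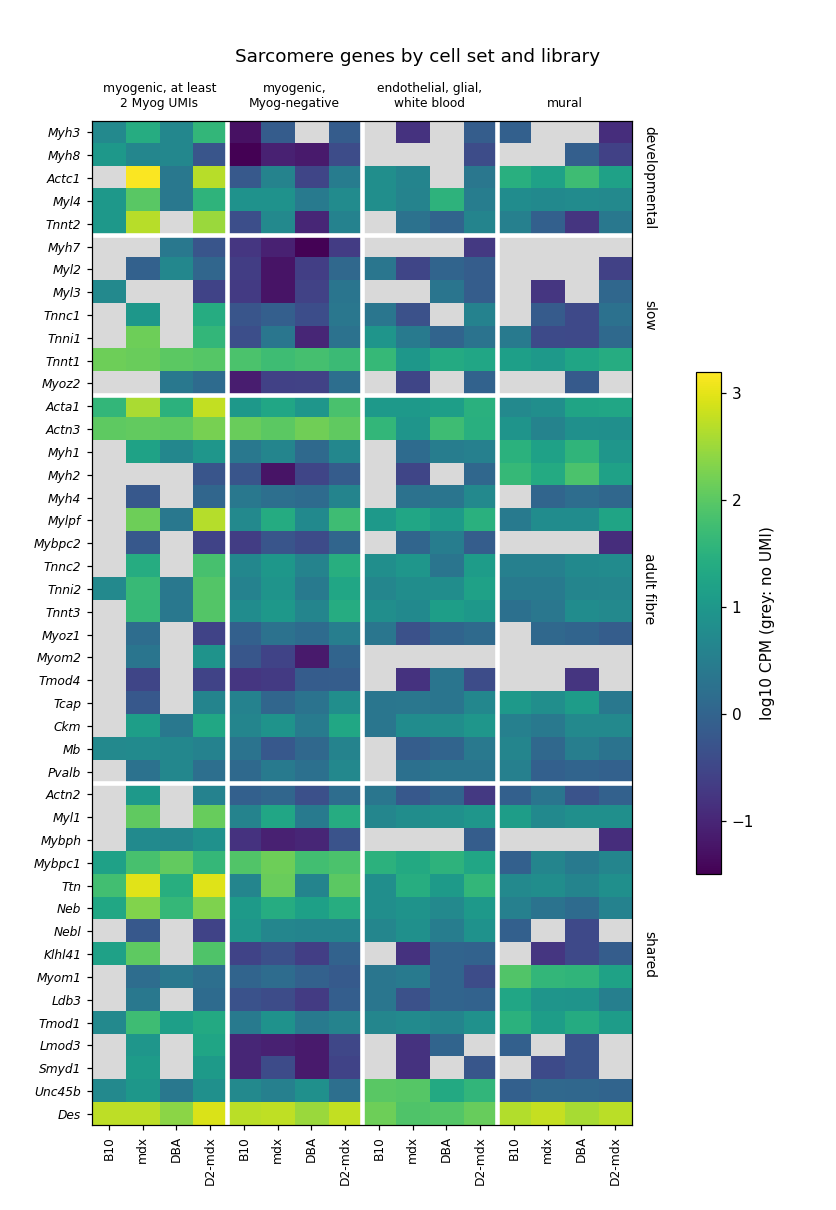
Level (log10 CPM) of the 44 members (rows, by stage) in 4 cell sets of each library (columns), grey where no UMI was counted. Actc1, Tnnt2, Tnni1 and Klhl41 are brightest in Myog-expressing cells of mdx and D2-mdx, Actn3, Tnnt1, Mybpc1 and Des are bright in every myogenic set, and Myh2 and Myom1 are brightest in mural cells.

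Of the slow-fiber genes, 2 were highest in *Myog*-expressing DMD cells, 1 was well above 10 CPM in myogenic cells with and without *Myog*, and 4 were low in both. *Tnni1*, the slow troponin I that embryonic muscle also uses, was at 0 UMIs in B10 and DBA *Myog*-expressing cells, 146 CPM in *mdx* and 41.5 CPM in D2-*mdx*, and at 0.102 to 2.24 CPM without *Myog*. *Tnnc1*, the slow and cardiac troponin C, was at 9.81 CPM in *mdx* and 25.5 CPM in D2-*mdx*. All 32 *mdx* UMIs of *Tnnc1* came from 1 cell, and without the cells rich in fiber transcripts described below it was at 0 and 8.12 CPM. *Tnnt1*, the slow troponin T, was at 147, 135, 104 and 92.5 CPM in *Myog*-expressing cells of B10, *mdx*, DBA and D2-*mdx* and at 74.7, 54.0, 64.5 and 51.2 CPM in cells without *Myog*, a ratio of 1.62 to 2.50 over the 4 libraries. A *Tnnt1* UMI was found in 45.5% to 80.0% of the *Myog*-expressing cells of a library. *Myh7*, *Myl2*, *Myl3* and *Myoz2*, the slow myosin heavy chain, its light chains and a Z-disc protein of slow fibers, were at 5.08 CPM or less in both sets of every library.

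Of the adult fiber genes, *Acta1*, *Mylpf* and the fast troponin genes were higher in *Myog*-expressing cells of both DMD libraries, *Tnnc2* in D2-*mdx* only through few cells described below. Other genes of mature fibers had no common direction. *Acta1*, the adult skeletal actin (chromosome 8, 123891769 to 123894751), was at 40.6, 396, 33.2 and 597 CPM in *Myog*-expressing cells of B10, *mdx*, DBA and D2-*mdx*, and at 10.2, 19.4, 9.33 and 71.9 CPM without *Myog*. *Mylpf*, the fast regulatory light chain, was at 0, 146, 2.37 and 477 CPM with *Myog* and 5.12, 24.7, 5.36 and 55.4 CPM without. *Tnni2*, *Tnnt3* and *Tnnc2*, the fast troponin subunits, were at 46.9, 44.2 and 26.1 CPM in *mdx* and 88.0, 89.4 and 68.4 CPM in D2-*mdx* with *Myog*, against 8.44 to 10.3 and 19.4 to 28.1 CPM without. *Ckm*, the muscle creatine kinase, was at 13.5 and 19.7 CPM with *Myog* and 8.13 and 20.03 CPM without in *mdx* and D2-*mdx*. *Mb*, which encodes myoglobin, was at 5.52 CPM (18 UMIs) with *Myog* and 0.623 CPM (22 UMIs) without in *mdx*, and at 3.88 and 3.96 CPM in D2-*mdx*. *Myh4*, the fast IIb myosin heavy chain, was at 0.613 and 1.11 CPM with *Myog* and 1.67 and 4.21 CPM without, and *Pvalb*, the calcium buffer of fast fibers, was at 1.84 and 1.66 CPM with *Myog* and 2.78 and 4.99 CPM without. In the *mdx* cells of the cluster led by *Myog*, *Ckm* and *Pvalb* were at 47.8 and 11.7 CPM, against 5.28 and 1.98 CPM in the other myogenic clusters, and 1 *mdx* cell held 96 of the 336 *Ckm* UMIs.

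Some of these levels rest on few cells. Cells in which *Acta1*, *Tnnc2* and *Tnnt3* made up 1% or more of the UMIs numbered 2 in *mdx*, with a highest share of 9.85%, and 4 in D2-*mdx*, with a highest share of 5.86%, and there were 0 in B10 and DBA. Of these, 1 *mdx* cell and 2 D2-*mdx* cells were *Myog*-expressing. Without them, *Mylpf* in *Myog*-expressing cells was at 69.1 CPM in *mdx* and 350 CPM in D2-*mdx*, *Tnnc2* at 12.04 and 26.6 CPM, *Tnnt3* at 26.8 and 65.2 CPM, *Tnni2* at 30.9 and 77.5 CPM, *Acta1* at 360 and 422 CPM, and *Myl4* at 88.3 and 16.5 CPM. In D2-*mdx*, *Tnnc2* was then no higher than in cells without *Myog*, from which such cells were not removed. The levels of *Actc1* (1451 and 419 CPM) and *Tnnt2* (474 and 285 CPM) moved less.

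Of the 15 genes shared by the stages, 6 were more than 2-fold higher in *Myog*-expressing cells of both DMD libraries by the whole interval, while *Mybpc1* and *Nebl* were lower in them. *Ttn*, which encodes titin, the elastic filament that spans the sarcomere (chromosome 2, 76703980 to 76982547), was at 60.9, 971, 28.4 and 921 CPM in *Myog*-expressing cells and 4.44, 133, 4.24 and 104 CPM without *Myog*. Of the 7 members at 10 CPM or more in either set of every library, *Ttn* alone had a ratio interval wholly above 2-fold in every library, where 1.04% of 7420 genes did so. In the controls this rests on 12 *Ttn* UMIs in 3 of 10 B10 cells and 12 in 4 of 24 DBA cells. In each control library 1 cell held 7 of them. *Neb*, the thin-filament ruler nebulin, was at 20.3, 205, 42.6 and 197 CPM with *Myog* and 11.5, 25.3, 14.9 and 26.6 CPM without. *Klhl41*, an adaptor that stabilizes nebulin, was at 15.2 CPM (3 UMIs), 106, 0 and 80.0 CPM with *Myog* and at 0.238 to 0.955 CPM without. *Ttn* thus stood out in cells without *Myog* as well in both DMD libraries, while *Klhl41* did not.

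*Smyd1* and *Lmod3* were lower in level and nearly missing outside these cells, whereas other chaperone and filament genes were also found in cells without *Myog*. *Smyd1*, a methyltransferase needed for myosin assembly, was at 11.96 CPM in *mdx* and 11.3 CPM in D2-*mdx* *Myog*-expressing cells, and *Lmod3*, a nucleator of thin filaments, at 9.51 and 17.99 CPM. *Smyd1* and *Lmod3* had 0 UMIs in the *Myog*-expressing cells of B10 and DBA and were at 0.0679 to 0.368 CPM without *Myog*. *Myl1*, the fast essential light chain, was at 0, 111, 0 and 126 CPM with *Myog* and 3.98, 18.9, 2.75 and 25.6 CPM without. *Actn2*, the α-actinin of all fibers, and *Mybph*, a relative of myosin-binding protein C, were at 11.0 and 5.52 CPM in *mdx* and 3.88 and 7.47 CPM in D2-*mdx* with *Myog*, and *Nebl*, the nebulin relative nebulette, was at 0.613 and 0.277 CPM with *Myog* and 4.504 and 4.18 CPM without. *Unc45b*, a myosin chaperone, was at 5.08 (1 UMI), 9.81, 2.37 (1 UMI) and 7.197 CPM with *Myog* and at 1.63 to 7.09 CPM without. *Tmod1*, which caps thin filaments, was at 5.08, 54.3, 14.2 and 22.4 CPM with *Myog* and 2.69 to 8.02 CPM without. *Mybpc1*, the slow myosin-binding protein C, went the other way in 3 libraries, at 15.2, 68.7 and 43.5 CPM in B10, *mdx* and D2-*mdx* cells with *Myog* and 85.0, 145 and 73.3 CPM without, while in DBA it was at 116 and 60.1 CPM.

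Members were counted out of those with at least 10 CPM in either set. *Actc1*, *Tnnt2*, *Tnni1*, *Klhl41* and others reached this level only through the *Myog*-expressing set, where they are high, so the filter itself favors such members. In *mdx* the interval of the ratio between *Myog*-expressing cells and cells without *Myog* lay above 2-fold for 19 of 23 members (4.55% of all 8301 genes at that level). In D2-*mdx* it did so for 18 of 23 (3.23% of 8224 genes). It did so for 4 of 11 members in B10 (2.82%) and 1 of 8 in DBA (1.95%), where few cells carried *Myog*. In both DMD libraries the ratio passed for 16 of 21 members (2.71% of all genes). These were *Actc1*, *Tnnt2*, *Myh3* and *Myl4* of the developmental genes, *Tnni1* of the slow genes, *Acta1*, *Mylpf*, *Tnnc2*, *Tnni2* and *Tnnt3* of the adult genes, and *Klhl41*, *Myl1*, *Neb*, *Smyd1*, *Tmod1* and *Ttn* of the shared genes. The count was not redone at this limit without the cells rich in fiber transcripts. For *Tnnc2*, 1 D2-*mdx* cell held 152 of its 247 UMIs. The median log2 ratio of the members at 10 CPM or more was 2.76 in *mdx* and 2.89 in D2-*mdx*, beside -0.09 over all genes in both. With at least 1 *Myog* UMI in place of 2, the counts were 15 of 20 in *mdx* (2.97% of all genes), 15 of 22 in D2-*mdx* (1.85%), 1 of 7 in B10 (1.47%) and 2 of 8 in DBA (1.5%). The ratio then passed for 13 of 19 members in both DMD libraries (1.58%) and for 1 of 7 in every library (0.584%). With at least 1 *Myog* UMI and no minimum level, it passed for 17 of 44 members in both DMD libraries (1.2% of all genes). In every library it passed for 1 of 44 (0.317%). The cells of the cluster led by *Myog*, which was formed without the members, were also set against the other myogenic clusters. That gave 21 of 25 members in *mdx* (4.65%), 14 of 24 in D2-*mdx* (3.49%), 2 of 8 in B10 (2.9%) and 1 of 8 in DBA (2.17%). It gave 12 of 23 in both DMD libraries (2.94%) and 1 of 7 in every library (1.13%).

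**Figure D3:**
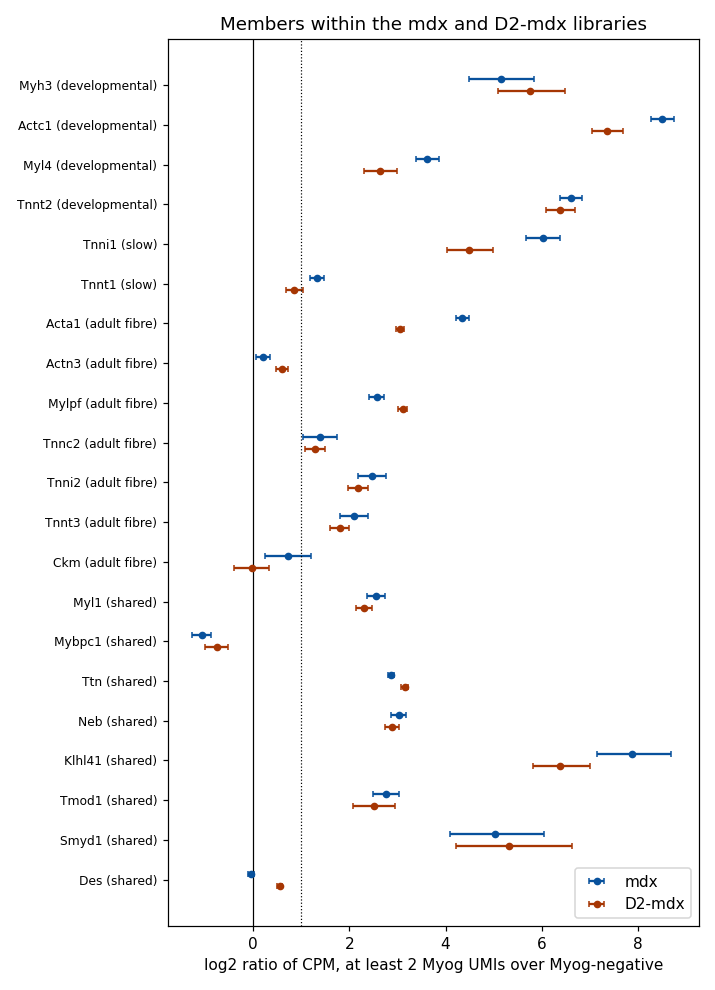
Log2 ratio of CPM between Myog-expressing cells (at least 2 Myog UMIs) and myogenic cells without Myog, within the mdx and the D2-mdx library, for the 21 members at 10 CPM or more in both. Points are ratios and bars exact 95% counting intervals; the solid line marks equal levels and the dotted line 2-fold. Actc1, Klhl41 and Tnnt2 lie highest, and Actn3, Ckm, Des and Mybpc1 lie near or below the solid line.

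Pooled over *Myog*-expressing DMD cells, most UMIs of the myosin heavy chain and troponin T families came from the developmental isoforms. By cells, *Myh3* was found in 38 and *Myh1* in 36 of 219 *mdx* cells, and in 37 and 24 of 242 D2-*mdx* cells. *Myh3* and *Myh8* together made up 100 of 155 UMIs of the 6 *Myh* members in *mdx* (64.5%, 56.4 to 72.0) and 147 of 188 in D2-*mdx* (78.2%, 71.6 to 83.9), 3 of 3 in B10 and 4 of 7 in DBA. In cells without *Myog* the share was 11.7% in *mdx* and 10.3% in D2-*mdx*, so the isoform mix differed between the sets and not only the amount. *Tnnt2* made up 73.5% of troponin T UMIs in *mdx* and 63.6% in D2-*mdx* with *Myog*, and 7.31% and 4.68% without. With at least 1 *Myog* UMI the share of *Myh3* and *Myh8* was 58.6% in *mdx* and 71.1% in D2-*mdx*, with 3 of 6 UMIs in B10 and 4 of 7 in DBA. At 2 UMIs without the cells rich in fiber transcripts it was 60.3% (51.6 to 68.6) in *mdx* and 74.8% (67.1 to 81.5) in D2-*mdx*. Adult *Myh1* (16.3 and 9.13 CPM) made up most of the remainder in *mdx* and D2-*mdx*.

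Actin and troponin I differed between the DMD libraries. *Actc1* made up 78.7% (77.6 to 79.7) of the UMIs of *Actc1* and *Acta1* in *mdx* *Myog*-expressing cells and 45.2% (43.6 to 46.7) in D2-*mdx*, and *Tnni1* made up 75.6% (72.1 to 78.9) and 32.1% (27.8 to 36.5) of the UMIs of *Tnni1* and *Tnni2*. Without the cells rich in fiber transcripts the *Actc1* shares were 80.1% and 49.8% and the *Tnni1* shares 81.0% and 27.5%. Cell by cell, among cells with at least 10 actin UMIs, the median *Actc1* share was 92.3% over 81 *mdx* cells and 56.5% over 56 D2-*mdx* cells, and it ran from 0 to 100% in both, so cells with either actin alone were present. *Myl4* made up 46.9% and 22.4% of the UMIs of *Myl1*, *Myl3* and *Myl4*, and 14.0% in D2-*mdx* without the cells rich in fiber transcripts. The shares compare 3′ tags, 1 per captured molecule, and the *mdx* and D2-*mdx* mice also differed in strain and age.

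**Figure D4:**
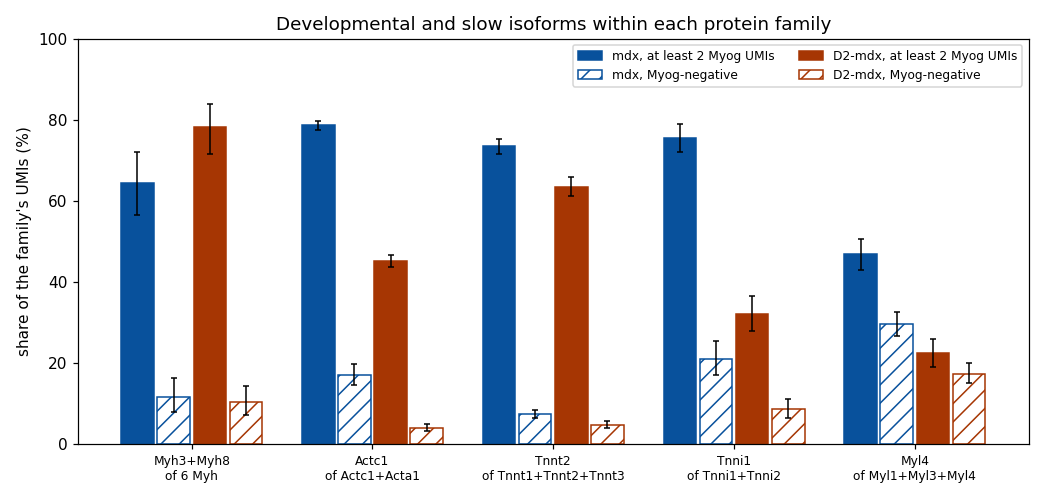
Share (%) of the UMIs of a protein family that came from its developmental or slow isoform, in Myog-expressing cells (filled) and cells without Myog (hatched) of mdx and D2-mdx; bars start at 0 and lines are exact 95% Clopper-Pearson intervals. Among Myog-expressing cells, Actc1 and Tnni1 took a larger share in mdx than in D2-mdx. Myh3 with Myh8 took 64.5% in mdx and 78.2% in D2-mdx, with overlapping intervals.

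*Ckm* and other transcripts of mature fibers were also counted in myogenic cells without *Myog* and in non-muscle cells. *Ckm* was at 4.31, 8.13, 2.82 and 20.03 CPM in myogenic cells without *Myog* of B10, *mdx*, DBA and D2-*mdx*. In the non-muscle cells of the same libraries it was at 2.23 (1 UMI), 6.16, 6.28 (6 UMIs in 3 cells) and 9.48 CPM. Its 667 UMIs in D2-*mdx* myogenic cells were found in 385 cells where a spread in proportion to depth would give 601, and *Myog*-expressing cells held 10.6% of them, close to their 10.4% of all UMIs. In *mdx* they held 13.1% of the 336 *Ckm* UMIs and 43.9% of the 41 *Mb* UMIs, against 8.10% of all UMIs. *Mb*, *Tcap*, *Myh4*, *Pvalb*, *Myoz1*, *Mybpc2* and *Tmod4*, which encode oxygen storage, Z-disc, contractile and thin-filament proteins of adult fibers, were all at 6.58 CPM or less in cells without *Myog* and at 5.22 CPM or less in non-muscle cells. The 10 highest cells held 33.7% of the D2-*mdx* *Ckm* UMIs, so *Ckm* was not evenly spread over the myogenic cells of that library. In non-muscle cells *Ckm* was found in 37 cells in *mdx* and 43 in D2-*mdx*, where 38.8 and 46.4 were expected by depth. *Mylpf* was found in 110 and 121, where 114 and 134 were expected. *Myh4* in D2-*mdx* was less even, in 12 cells where 26.2 were expected. Few UMIs over many cells give values near the expected number in most cases.

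The mix of fiber transcripts was compared between cell sets as UMIs of a gene per *Ckm* UMI. *Acta1* UMIs per *Ckm* UMI were 2.36 (1.97 to 2.84) in B10 and 2.39 (2.08 to 2.75) in *mdx* cells without *Myog*, 1.72 (1.15 to 2.61) in *mdx* non-muscle cells and 2.28 (1.94 to 2.69) in B10 barcodes with fewer than 1000 genes. In D2-*mdx* they were 3.59 (3.27 to 3.95) without *Myog*, 3.24 (2.34 to 4.57) in non-muscle cells and 3.80 (2.67 to 5.53) in mural cells. In *Myog*-expressing cells the ratio was 29.3 (21.7 to 40.6) in *mdx* and 30.4 (24.0 to 39.1) in D2-*mdx*. The intervals of *Acta1* per *Ckm* outside the *Myog*-expressing cells thus overlapped within each of these libraries, and in the DMD libraries those inside them lay higher. *Mylpf* per *Ckm* was 3.04 and 2.77 without *Myog* and 10.8 and 24.3 with it in *mdx* and D2-*mdx*. Not every gene kept 1 ratio outside these cells. In *mdx*, *Myl1* per *Ckm* was 2.32 (2.02 to 2.67) without *Myog* and 1.05 (0.665 to 1.66) in non-muscle cells, and *Tcap* per *Ckm* was 0.139 (0.0975 to 0.194), 0.375 (0.192 to 0.694) and 2.71 (1.44 to 5.42) in cells without *Myog*, non-muscle cells and mural cells. *Mb* per *Ckm* in *mdx* was 0.409 (0.222 to 0.723) with *Myog* and 0.0767 (0.0473 to 0.118) without. The source of these UMIs was not tested.

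A further group of members was higher in myogenic cells without *Myog* than in non-muscle cells. *Actn3*, the Z-disc α-actinin of fast fibers and an adult fiber gene by the list, was at 132, 103, 152 and 114 CPM in cells without *Myog* of B10, *mdx*, DBA and D2-*mdx*, against 40.1, 8.78, 55.5 and 29.6 CPM in non-muscle cells and 4.06 to 8.73 CPM in mural cells. It did not follow *Acta1* or *Ckm*, and at 107 to 172 CPM in *Myog*-expressing cells it was near its level in the rest. *Des*, the intermediate filament protein that ties Z-discs together, was at 522, 567, 309 and 586 CPM without *Myog* and at 79.3 to 143 CPM in non-muscle cells, and mural-like cells carried it at 378 to 610 CPM. *Tnnt1* and *Mybpc1* were likewise 1.68 to 6.35 times higher in cells without *Myog* than in non-muscle cells over the 4 libraries. Thinned to 3000 UMIs per cell, *Actn3* was found in 18.8% to 32.5% of cells without *Myog* and in 1.98% to 14.7% of non-muscle cells, and unthinned in 34.9% to 67.6% and 5.56% to 36.0%.

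Other sorted cells carried members of their own. *Myh2*, the IIa myosin heavy chain, was at 45.4, 23.7, 72.8 and 15.3 CPM in mural-like cells of B10, *mdx*, DBA and D2-*mdx*, where the myogenic cells had 0.0497 to 0.781 CPM. *Myh1* followed it at 31.4, 15.4, 38.0 and 9.49 CPM. Both are neighbors on chromosome 11, and whether reads of 1 were counted for the other was not tested. These UMIs lay in the larger mural-like clusters (*Myh2* 15.5 to 75.5 CPM), whereas a mural-like cluster of 7 to 58 cells per library, led by *Pln*, *Tesc*, *Rergl* and *Casq2*, had 0 *Myh2* UMIs, which allows up to 4.91 to 26.6 CPM. That cluster carried *Myom1* (84.5 to 292 CPM), *Ldb3* (49.3 to 124 CPM) and *Tcap* (42.2 to 301 CPM), which encode M-band and Z-disc proteins. *Actc1* was at 15.5 to 57.5 CPM in the larger mural-like clusters, above its 0.305 to 3.99 CPM in myogenic cells without *Myog*. Mural cells express the related smooth muscle actin gene *Acta2*, and whether its reads were counted for *Actc1* was not tested. *Unc45b* was at 340, 265, 202 and 249 CPM in the 15, 256, 9 and 92 endothelial-like cells and at 1.63 to 7.09 CPM in myogenic cells without *Myog*.

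Compared between strains over all myogenic cells, most members at 10 CPM or more in a library of the pair were at least 2-fold higher in the DMD library. Of the 44 members 17 reached 10 CPM in *mdx* or B10, and 13 were at least 2-fold higher in *mdx* and 0 lower, where 4.67% of all 8472 genes were that much higher and 5.17% lower. In D2-*mdx* over DBA, 15 reached the level, 12 were at least 2-fold higher (5.89% of all 8496 genes) and 0 lower (5.92%). The median log2 ratio of these members was 1.77 and 3.02, beside -0.03 and -0.07 over all genes. Members such as *Actc1*, *Tnnt2* and *Ttn* reached the level only in the DMD library of each pair. With no minimum level, 26 of 44 members were at least 2-fold higher in *mdx* (16.8% of all genes) and 5 lower (17.1%). In D2-*mdx* 37 were higher (19.4%) and 1 lower (16.1%). In whole sets of cells, more cells of a kind and more RNA per cell cannot be told apart, and the DMD libraries held more *Myog*-expressing cells.

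*Actc1* was at 0.652 CPM in B10 and 122 CPM in *mdx* myogenic cells (log2 ratio 7.55, 6.99 to 8.16) and at 0.365 CPM in DBA and 54.0 CPM in D2-*mdx* (7.21, 6.37 to 8.21). *Tnnt2* was at 0.476 and 45.0 CPM in B10 and *mdx* (6.56, 5.91 to 7.30) and at 0.0996 and 36.7 CPM in DBA and D2-*mdx* (8.53, 6.98 to 10.81). *Ttn* was at 4.76 and 205 CPM (5.43, 5.22 to 5.64) and at 4.65 and 196 CPM (5.39, 5.15 to 5.65). These 3 differed by 42.1-fold or more in each pair, and no other member at 10 CPM in both pairs did so. *Acta1* differed by 2.28 on the log2 scale in *mdx* over B10 and 3.70 in D2-*mdx* over DBA, *Mylpf* by 2.78 and 4.19, *Neb* by 1.77 and 1.58, and *Des* by 0.12 and 1.01. *Actn3* (-0.33 in both pairs) and *Tnnt1* (-0.29 and -0.24) were slightly lower in the DMD libraries. Among *Myog*-expressing cells alone the *Actn3* ratios were 0.15 and 0.66. They are set against 21 UMIs in 10 B10 cells and 46 UMIs in 24 DBA cells.

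In cells without *Myog* alone, fewer members differed. There 4 of 10 members at the level were at least 2-fold higher in *mdx* (*Myl1*, *Mylpf*, *Neb* and *Ttn*; 4.44% of all genes) and 8 of 13 in D2-*mdx* (*Acta1*, *Ckm*, *Myl1*, *Mylpf*, *Tnnc2*, *Tnni2*, *Tnnt3* and *Ttn*; 5.33%), and 0 were lower in either pair (4.72% and 5.25% of all genes). *Actc1* and *Tnnt2* were below 10 CPM in this set in every library. *Ttn* kept a log2 ratio of 4.91 (4.69 to 5.14) and 4.61 (4.35 to 4.88), and in non-muscle cells its ratio was 2.02 (0.45 to 4.31) and 1.85 (0.98 to 2.88). The adult genes of the D2-*mdx* pair thus differed in cells without *Myog* as well, with *Ckm* at 2.83 (2.50 to 3.18) and 0.59 (-0.63 to 2.11) in non-muscle cells, and without the cells rich in fiber transcripts *Ckm* over all myogenic cells was at 2.27. Among *Myog*-expressing cells alone, 20 of 24 members had a ratio of at least 2-fold in *mdx* (12.4% of all genes), with *Myh8* lower (18.3%). In D2-*mdx* 19 of 23 did so (11.1%), with *Mybpc1* lower (14.8%). These counts use the ratio and not its interval. They rest on 10 B10 and 24 DBA cells, where 0 UMIs allow up to 15.2 and 7.11 CPM. *Actn2*, *Ckm* and *Smyd1* were counted in *mdx* at levels under the B10 limit, and *Myh8* rests on 2 B10 UMIs in 1 cell. *Myh1* and *Tnnc2* in *mdx* and *Smyd1* in D2-*mdx*, with 0 control UMIs, were less than 2-fold above the control limit. *Actc1* in *mdx* was 95.7-fold above the limit of 3 counts over the 10 B10 cells. That limit is lower than the upper end of the exact interval, so 95.7 is not a lower bound of the ratio. With at least 1 *Myog* UMI, 16 of 20 members were higher in *mdx* (8.36%) and 0 lower (13.5%), and 18 of 23 higher in D2-*mdx* (9.12%) with *Pvalb* lower (10.3%).

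**Figure D5:**
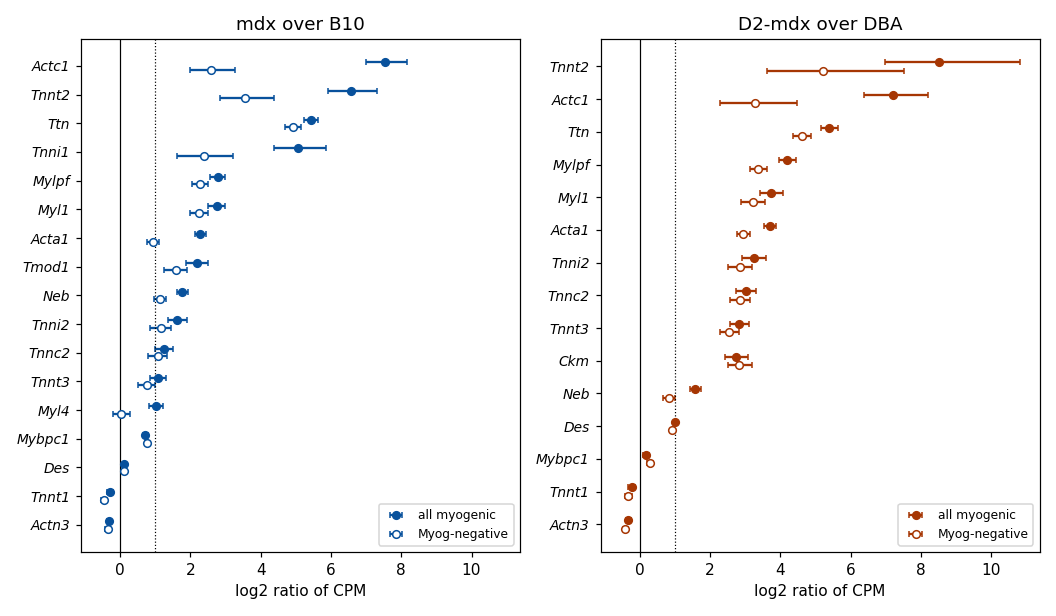
Log2 ratio of CPM in mdx over B10 and in D2-mdx over DBA for the members at 10 CPM or more in a library of the pair, over all myogenic cells (filled) and over cells without Myog (open). Bars are exact 95% counting intervals, with 1 library per strain; the dotted line marks 2-fold. Actc1, Tnnt2 and Ttn lie highest in both pairs, and Actc1 and Tnnt2 lie lower in cells without Myog.

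Another 37 sarcomere and muscle genes outside the list were read for comparison, and 15 reached 10 CPM in each pair. *Tpm1* and *Tpm2*, the tropomyosins, *Cacng1*, a calcium channel subunit, and *Murc*, a caveolar protein, were at least 2-fold higher in both DMD libraries, with *Cap2* also higher in D2-*mdx*, and *Lmod2* and *Mylk2* were at least 2-fold lower in *mdx*. The median log2 ratio of the 15 was 0.11 in *mdx* over B10 and 0.51 in D2-*mdx* over DBA. In *Myog*-expressing cells the ratio to cells without *Myog* had an interval above 2-fold for 11 of the 18 of these genes at 10 CPM or more in *mdx* (4.55% of all genes), 9 of 19 in D2-*mdx* (3.23%), 4 of 15 in B10 (2.82%) and 4 of 14 in DBA (1.95%). *Cap2*, an actin-binding protein, and *Mylk4*, a myosin light chain kinase, were among them in every library.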

How the data were processed

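Satellite cells of 4 strains were profiled by 10X 3′ RNA-seq, with 1 library per strain. The authors deposited unnormalized UMI counts per gene and barcode, made with Cell Ranger 3.0.1 against mm10, per the submitters' processing notes. Kept cells had 1000 to 5000 genes and up to 8% of UMIs from mitochondrial genes, and predicted doublets (91 to 356 per library; Scrublet in scanpy 1.11.5, at a rate of 0.008 per 1000 cells) were removed. The cells of all libraries were clustered (Leiden, leidenalg 0.10.2) on 2000 variable genes, 30 components and 20 neighbors at resolution 0.5, without the members, and clusters were classed by marker lists, so class names are rebuilt and approximate. Counts were summed over cells and given per 1000000 UMIs (CPM), with a minimum of 10 CPM in either set for counts of genes. Gene positions are from the GRCm38 annotation.

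The members and gene lists were chosen with earlier results of these data known. Named in full were the developmental genes and, per role, the members with most UMIs. Stricter *Myog* limits, cell filters, thinning, levels and scalings (edgeR 4.0.16, DESeq2 1.42.0) served as alternatives. The ratio intervals were checked on simulated Poisson counts, which leave out the clumping of UMIs in few cells. UMIs mark molecules, but intervals cover counting error only.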

Additional observations from a re-analysis of the deposited data

Results flagged for a closer look

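Over all myogenic cells, 4 adult fiber members were lower in *mdx* than in B10 and higher in D2-*mdx* than in DBA. On the log2 scale *Myh2* was at -3.47 and 1.39, *Myh4* at -0.65 and 1.46, *Tcap* at -1.75 and 1.64, and *Mb* at -0.96 and 1.60. All were under 10 CPM in each library, and the difference between the pairs was not tested.

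Barcodes with fewer than 1000 genes, which enter no comparison of the members between strains, carried the 17 adult fiber genes at 807.5 CPM in B10, above the 180 CPM in B10 myogenic cells without *Myog*. Most of the 180 CPM came from *Actn3*.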

How the results depend on the processing

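With 1 library per strain no replicate could be left out. No paired analysis was possible because each strain has 1 library and the libraries carry no replicate numbers, and a joint fit of both DMD and control pairs was not run. The shares of *Myog*-positive cells (at least 1 UMI) depended most on the limits: with at least 2 UMIs they were 4.56% in *mdx*, 5.84% in D2-*mdx*, 0.226% in B10 and 0.890% in DBA. Thinned to 3000 UMIs they were, in the same order, 5.66%, 8.01%, 0.228% and 0.630%, and at 5000 UMIs 0.443% in B10, 0.890% in DBA and 11.1% in D2-*mdx*. When the gene limits were lowered to 500 and lifted above they were 9.07% in *mdx* and 15.7% in D2-*mdx*. At 50 CPM, 0 of 4 members were higher in *Myog*-positive cells of every library (0.786% of all genes) and 7 of 11 in both DMD libraries (1.77%), and 2 of 6 and 5 of 8 were at least 2-fold higher in *mdx* and D2-*mdx* (3.87% and 5.78%). With no minimum level 26 and 37 of 44 were higher (16.8% and 19.4%) and 5 and 1 lower (17.1% and 16.1%). In cells without *Myog* 4 were higher in *mdx*, and in cells with at least 2 *Myog* UMIs (chosen after seeing the data, as were the limit of 4 UMIs, the *Myog*-led cluster and the sums without cells rich in fiber transcripts) 20 and 19 were higher and 1 lower in each pair, as was 1 in D2-*mdx* with at least 1 UMI. The share of *Myh3* and *Myh8* was 100.0% in B10 and 78.2% in D2-*mdx* at limits of 2 and 4 UMIs, and 68.2% in *mdx* with the limit of 500 genes. With cells at or above a limit set against all myogenic cells below it, directions turned for *Tnnc2* within D2-*mdx* (log2 -0.18 at 4 UMIs, -0.62 in the *Myog*-led cluster), *Tnni2* (-0.017 in that cluster) and *Ckm* (0.47 at 500 genes, 0.030 at 2 UMIs, or -0.027 with 2 UMIs against cells without *Myog*). Between strains they turned in *Myog*-positive cells for *Tnnt1* (0.31) and *Des* (-0.043) in *mdx*, and for *Actn3* (0.34) and *Mybpc1* (-0.98) in D2-*mdx*. They also turned at 2 UMIs for *Actn3* (0.15 in *mdx*, 0.66 in D2-*mdx*) and *Mybpc1* (-1.42), and at 500 genes for *Mybpc1* (-0.30). A turn is a change of sign, whatever the interval of the turned value, and the cause was not tested. No direction turned under either scaling.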
